A study of Xenopus laevis with 12 samples.

Results

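Explants of Xenopus laevis ectoderm that had received an antisense oligonucleotide against lhx1 were compared after culture with and without activin and retinoic acid. Of the 12 arrays of the study, 6 belong to this comparison, and their labels, not their values, assign them to it. The lhx1-AS/AcRA group, titled DEED+activin+RA, is 3 arrays of caps treated with 10 ng/ml activin and 1e-04 M retinoic acid (AcRA). The lhx1-AS group, titled DEED animal cap, is 3 arrays of untreated caps. Both groups came from embryos of no stated genotype that were injected at the 2-cell stage. They received 800 pg of DEED-As, an antisense oligonucleotide against lhx1 named for its DEED modification and called lhx1-AS here. Experiments I, II and III gave 1 array each to every group. Each RNA was prepared from 12 pooled caps, so p-values measure the spread between preparations of pooled caps. That spread was estimated over all 12 arrays, after differences between the experiments were taken out. The other arrays are 3 of uninjected caps treated with AcRA and 3 of uninjected, untreated control caps (C), and were used for the spread and for 1 comparison. By the labels, caps were cut at stage 9 and kept in culture up to sibling stage 12.5. The paper's text gives a later harvest stage, so the stage is not settled. Caps injected with a control oligonucleotide were not part of these arrays, so an effect of injection and an effect of lhx1-AS cannot be told apart in any comparison of injected with uninjected caps.

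The animal cap is the roof of the blastula and forms epidermis, with mucus-secreting, ion-transporting and multiciliated cells, when it is cultured without added factors. Activin acts through the receptors and Smad proteins that nodal ligands also use and turns cap cells to mesoderm and endoderm. Retinoic acid binds nuclear receptors, switches on its own degrading enzymes and gives cells a more posterior character. Together they are a standard recipe for making pronephros, the embryonic kidney, in caps, and lhx1 encodes a LIM homeodomain factor of the organizer and of the kidney field.

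Signals are linear GCOS units, scaled on each array to the same trimmed mean, and are given in the order of experiments I, II and III. Values of different probe sets are not comparable with each other. Fold changes are log2 differences of lhx1-AS/AcRA over lhx1-AS with their standard errors from limma, and a probe set was called where its adjusted p was under 0.05. Where a range stands beside a fold change, it gives the lowest and highest log2 fold change obtained when each of the 6 arrays was left out in turn. Ranges stand only beside called genes whose fold moved by over 1.5 times in this way.

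The 6 arrays were alike in brightness, with median signals of 109 to 123 in lhx1-AS/AcRA caps and 108 to 124 in lhx1-AS caps, against 130.4 to 139.8 in AcRA caps and 126 to 151 in C caps. Log2 signals of arrays of the same group correlated across probe sets at 0.887 to 0.905 in lhx1-AS/AcRA caps and at 0.869 to 0.900 in lhx1-AS caps. Keratin and other epidermal probe sets were bright in lhx1-AS caps, with a summed signal of the 49 measured epidermis genes of 141250 to 156110, which is the tissue the labels give.

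The RNA that the oligonucleotide targets was measured first. The signals of lhx1 were 1144, 991 and 1614 in lhx1-AS/AcRA caps, against 1.55, 42.6 and 3.2 in lhx1-AS caps. The groups did not overlap, and limma gave a log2 fold change of 7.68 ± 1.06 (range 6.54 to 9.26, adjusted p = 0.00022). In uninjected caps the signals of lhx1 were 316, 823 and 779 in AcRA caps, against 19.8, 2.19 and 2.60 in C caps (log2 fold change 6.93 ± 1.06, adjusted p = 0.000758), and the 2 responses did not pass the test of their difference (0.76 ± 1.49, adjusted p = 0.919). No array labelled lhx1-AS/AcRA had less lhx1 signal than any of the 3 AcRA arrays. By limma these 2 groups did not pass the test (log2 fold change of lhx1-AS/AcRA over AcRA 1.06 ± 1.06, adjusted p = 0.547). The array does not show whether Lhx1 protein was reduced.

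Of 15503 probe sets, 983 (6.34%) were higher and 1030 (6.64%) were lower in lhx1-AS/AcRA caps than in lhx1-AS caps, and 13490 were not called. Gene lists below were counted on the brightest probe set of each gene, while these shares cover all probe sets, dim ones included. A list count near these shares is no result about the list. The lists overlap, so their counts are not separate results. For example, lhx1 is in the organizer and early kidney lists, and cer1 is in the nodal, organizer and endoderm lists. Signals of the 3 lhx1-AS/AcRA arrays lay all above those of the 3 lhx1-AS arrays for 1564 probe sets (10.1%) and all below them for 1646 (10.6%). Many of the called changes were large. On the scale of log2(signal + 64), which damps the changes of dim probe sets, 242 of the higher and 214 of the lower probe sets changed by at least 4-fold, and 52 and 26 of them by at least 16-fold. The median of the mean signals of the 983 higher probe sets was 577 in lhx1-AS/AcRA caps and 104 in lhx1-AS caps, and that of the 1030 lower probe sets was 116 in lhx1-AS/AcRA caps and 524 in lhx1-AS caps. In each direction nearly all calls moved 1 way in all 3 experiments, 979 of the 983 higher and 1025 of the 1030 lower. The calls were made from these same differences, so this is no separate check of them. Log2 differences of the pairs of experiments correlated across probe sets at 0.421 to 0.457, a description across 15503 probe sets that are not independent. Without the pairing by experiment (no replicate block) the calls were 620 higher (4.00%) and 634 lower (4.09%), all of them among the calls with it.

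**Figure D1:**
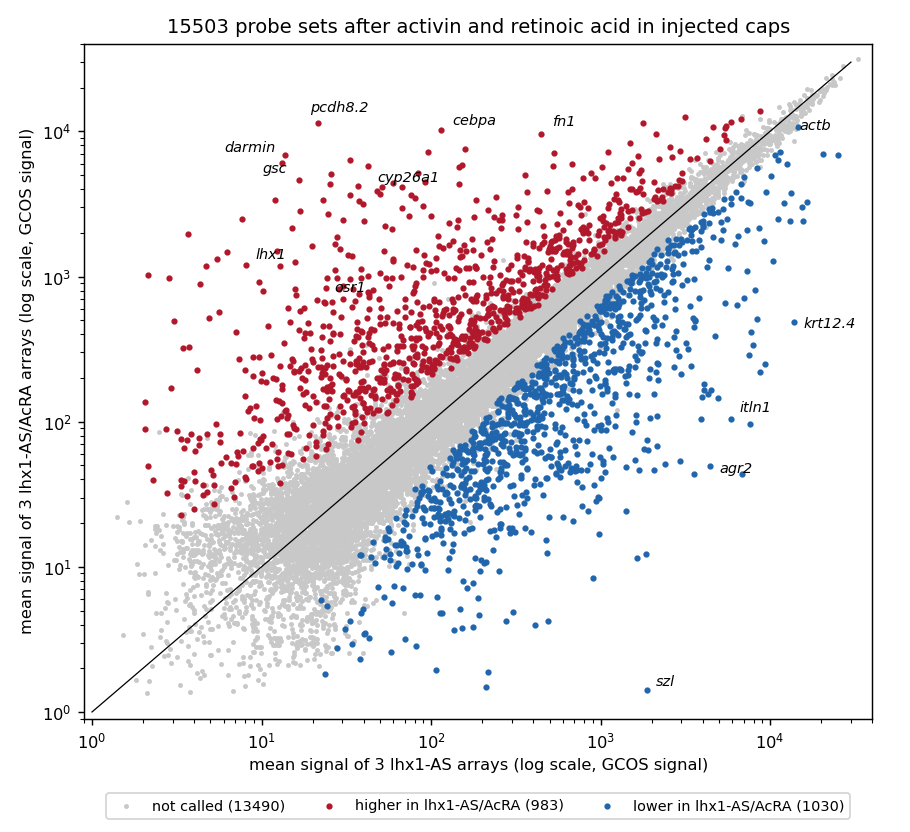
Each point is 1 of 15503 probe sets, with its mean GCOS signal over the 3 lhx1-AS arrays on the x axis and over the 3 lhx1-AS/AcRA arrays on the y axis, both on log scales, and red points are the 983 probe sets called higher, blue points the 1030 called lower, grey points were not called, and the line marks equal signals. Probe sets such as pcdh8.2 and darmin lie in the upper left, szl and itln1 in the lower right, and actb lies on the line.

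Genes of the retinoic acid pathway were taken next. Activin and retinoic acid were given only together, so their effects cannot be told apart here or below. Of 17 measured genes of the retinoic acid pathway 3 rose, none fell and 14 were not called, with 6 higher and 0 lower at an unadjusted p under 0.05. The median log2 fold change of the 17 was 0.51, against -0.0033 over all probe sets. The cytochrome P450 gene cyp26a1, whose product degrades retinoic acid, had signals of 7444, 4832 and 5139 in lhx1-AS/AcRA caps, against 53.7, 17.9 and 55.6 in lhx1-AS caps (log2 fold change 7.24 ± 0.42, range 6.65 to 7.59, adjusted p = 2.29e-07). Those of dhrs3, for a reductase that turns retinaldehyde back to retinol, were 6433, 5229 and 5913 in lhx1-AS/AcRA caps, against 147, 145 and 164 in lhx1-AS caps (log2 fold change 5.26 ± 0.20, adjusted p = 6.42e-09). Both genes were far brighter on every treated array than on any untreated one. The related degrading enzyme gene cyp26c1 was dimmer, with 81.5, 86.2 and 215 in lhx1-AS/AcRA caps, against 19.8, 3.43 and 46.7 in lhx1-AS caps (log2 fold change 2.97 ± 0.71, range 2.05 to 3.71, adjusted p = 0.0133). Its call was lost without lhx1-AS/AcRA array 2 or 3 or lhx1-AS array 2, with adjusted p of 0.063, 0.0686 and 0.0602. Genes that make or receive the signal were not called. For rdh10, which makes retinaldehyde from retinol, the signals overlapped at 2293, 2548 and 2402 in lhx1-AS/AcRA caps, against 2504, 2513 and 2315 in lhx1-AS caps (log2 fold change -0.02 ± 0.30, adjusted p = 0.979). The receptor gene rarg overlapped too, with 1490.3, 879 and 1611 in lhx1-AS/AcRA caps, against 845, 1306 and 1341 in lhx1-AS caps (log2 fold change 0.17 ± 0.26, adjusted p = 0.758).

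Hox genes, which give cells their place along the body axis, rose in part. Of 19 measured Hox genes 8 rose and none fell, with log2 fold changes of 2.31 to 7.25, and the median of all 19 was 1.21. The anterior gene hoxa3 had signals of 3502, 3188 and 2792 in lhx1-AS/AcRA caps, against 36.9, 3.03 and 79.9 in lhx1-AS caps (log2 fold change 7.25 ± 0.72, range 6.05 to 8.02, adjusted p = 1.49e-05). Its neighbour hoxa2 had 637, 764 and 641 in lhx1-AS/AcRA caps, against 39.1, 44.9 and 23.5 in lhx1-AS caps (log2 fold change 4.30 ± 0.31, adjusted p = 1.31e-06). Both were low on all untreated arrays and even across the treated ones. The log2 changes of hoxa3 by experiment were less even, at 6.57, 10.04 and 5.13. On the treated arrays, the genes shown from the middle of the clusters varied more between experiments. Signals of hoxb4 were 443, 494 and 294 in lhx1-AS/AcRA caps, against 24.5, 2.88 and 52.1 in lhx1-AS caps (log2 fold change 4.70 ± 0.84, range 3.41 to 5.96, adjusted p = 0.00174). Those of hoxc5 were 426, 611 and 193 in lhx1-AS/AcRA caps, against 6.42, 36.5 and 14.8 in lhx1-AS caps (log2 fold change 4.61 ± 0.65, adjusted p = 0.000257). In hoxa7 they were 160.1, 567 and 521 in lhx1-AS/AcRA caps, against 4.87, 53.9 and 57.9 in lhx1-AS caps (log2 fold change 3.87 ± 0.60, range 3.14 to 4.40, adjusted p = 0.000619), the lowest of the treated arrays being that of experiment I. For hoxb5 they were 99.4, 85.5 and 126 in lhx1-AS/AcRA caps, against 21.9, 4.46 and 10.7 in lhx1-AS caps (log2 fold change 3.33 ± 0.73, adjusted p = 0.00748), and its call was lost without lhx1-AS/AcRA array 2 (adjusted p = 0.0517). Among the 11 not called, hoxb7 overlapped between the groups with 15.97, 69.4 and 83.3 in lhx1-AS/AcRA caps, against 19.8, 18.13 and 35.6 in lhx1-AS caps (log2 fold change 0.95 ± 0.55, adjusted p = 0.328). The same held for hoxc6, with 47.0, 168 and 89.8 in lhx1-AS/AcRA caps, against 33.6, 89.3 and 74.8 in lhx1-AS caps (log2 fold change 0.55 ± 0.56, adjusted p = 0.612). More posterior, hoxa11 had 64.6, 96.4 and 172 in lhx1-AS/AcRA caps, against 67.6, 214 and 374 in lhx1-AS caps (log2 fold change -0.78 ± 0.63, adjusted p = 0.512), and its untreated arrays were the higher ones in each experiment.

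Genes of the activin and nodal pathway were taken as ligands, inhibitors and receptors. Of 29 measured genes 8 rose and 3 fell. The ligand gene nodal1, an inducer of mesoderm and endoderm, had signals of 1181, 1547 and 1252 in lhx1-AS/AcRA caps, against 3.62, 2.04 and 10.8 in lhx1-AS caps (log2 fold change 8.26 ± 0.68, range 7.32 to 8.77, adjusted p = 3.57e-06). A second ligand gene of the same kind, nodal2, had 191, 442 and 450.1 in lhx1-AS/AcRA caps, against 22.2, 56.1 and 26.4 in lhx1-AS caps (log2 fold change 3.39 ± 0.55, adjusted p = 0.000797). Both were low on every untreated array, and their groups were far apart. The ligand gene gdf3 had 198, 330.4 and 83.9 in lhx1-AS/AcRA caps, against 33.0, 31.7 and 3.003 in lhx1-AS caps (log2 fold change 3.59 ± 0.80, range 2.87 to 4.27, adjusted p = 0.00833) and did not pass without the pairing by experiment (adjusted p = 0.0503). Among inhibitors, lefty, a feedback antagonist of nodal, had signals of 512, 1157 and 1396 in lhx1-AS/AcRA caps, against 1.59, 1.91 and 2.90 in lhx1-AS caps (log2 fold change 8.83 ± 0.80, adjusted p = 7.98e-06). The gene cer1, for a secreted antagonist of nodal, BMP and Wnt ligands, had 2453, 4944 and 5180 in lhx1-AS/AcRA caps, against 23.3, 53.6 and 34.0 in lhx1-AS caps (log2 fold change 6.83 ± 0.74, adjusted p = 3.19e-05). For both inhibitors the treated array of experiment I was the lowest of the 3. Follistatin (fst), which binds activin, had 32.6, 65.3 and 129.7 in lhx1-AS/AcRA caps, against 3.62, 24.6 and 1.27 in lhx1-AS caps (log2 fold change 3.75 ± 0.90, range 2.44 to 5.04, adjusted p = 0.0126). Without lhx1-AS/AcRA array 3 its change was 3.11 and its call was lost (adjusted p = 0.0795), as it was in a model of the 6 arrays alone (adjusted p = 0.0677). The protease gene furin, whose product cleaves TGF-β precursors, was lower on 1 of its 5 probe sets, with 399, 387 and 326 in lhx1-AS/AcRA caps, against 3049, 1372 and 2045 in lhx1-AS caps (log2 fold change -2.47 ± 0.23, adjusted p = 1.01e-05). The receptor gene acvr1 was not called and overlapped, with 5127, 3123 and 3169.8 in lhx1-AS/AcRA caps, against 5747, 2685 and 2241 in lhx1-AS caps (log2 fold change 0.18 ± 0.26, adjusted p = 0.734).

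Genes of early mesoderm rose in 21 of 33 cases and fell in 3. Their median log2 fold change was 3.06, or 1.16 after 64 was added to each signal. Paraxial protocadherin (pcdh8.2), an adhesion molecule of gastrulating mesoderm, had signals of 7354, 11022 and 16036 in lhx1-AS/AcRA caps, against 1.92, 3.49 and 59.0 in lhx1-AS caps (log2 fold change 10.54 ± 0.84, range 9.63 to 11.57, adjusted p = 2.86e-06). The T-box gene vegt, a driver of mesoderm and endoderm, had 6117, 7299.8 and 8129.9 in lhx1-AS/AcRA caps, against 71.0, 65.8 and 152 in lhx1-AS caps (log2 fold change 6.32 ± 0.69, range 5.67 to 6.90, adjusted p = 3.41e-05). The related T-box gene eomes had 4339.8, 4253 and 6873 in lhx1-AS/AcRA caps, against 38.6, 89.5 and 122 in lhx1-AS caps (log2 fold change 6.07 ± 0.95, adjusted p = 0.000626). In all 3 genes the treated signals were at least 4253 and the untreated ones at most 152. The gene hes7.2, for a Hes repressor of segmenting mesoderm, had 3192, 4518 and 3156 in lhx1-AS/AcRA caps, against 38.7, 13.8 and 47.4 in lhx1-AS caps (log2 fold change 6.93 ± 0.86, range 5.67 to 7.68, adjusted p = 9.58e-05). From the list of paraxial mesoderm and muscle, ripply2.2, for a corepressor at somite borders, had 3577, 1799.5 and 4747 in lhx1-AS/AcRA caps, against 12.9, 19.2 and 3.86 in lhx1-AS caps (log2 fold change 8.31 ± 0.73, range 7.30 to 9.03, adjusted p = 6.33e-06). Of the 21 genes that rose, 13 had their highest treated signal in experiment II, 6 in experiment III and 2 in experiment I. Over all 983 higher probe sets these numbers were 282, 319 and 382. The posterior homeobox gene evx1 was not called, with overlapping signals of 76.7, 235 and 13.4 in lhx1-AS/AcRA caps, against 49.7, 16.6 and 6.55 in lhx1-AS caps (log2 fold change 1.83 ± 0.93, adjusted p = 0.254).

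Of 34 genes of paraxial mesoderm and muscle 5 rose and 3 fell, the 3 being close to the share of all probe sets called lower (6.64%). The 5 became 2 without lhx1-AS/AcRA array 3 and 3 without lhx1-AS array 1 or without the replicate block. Among the 5 that rose were hes7.2 and ripply2.2, with log2 fold changes of 6.93 and 8.31 and signals given above. Among the 3 that fell were 2 muscle genes. The creatine kinase gene ckm had signals of 699, 405 and 389.9 in lhx1-AS/AcRA caps, against 2435, 1862 and 2068 in lhx1-AS caps (log2 fold change -2.14 ± 0.24, adjusted p = 3.57e-05). The troponin gene tnni2 had 16.6, 2.32 and 40.4 in lhx1-AS/AcRA caps, against 126, 64.2 and 108 in lhx1-AS caps (log2 fold change -3.04 ± 0.66, range -3.68 to -2.02, adjusted p = 0.00658). Both were lower on every treated array than on any untreated one.

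Organizer genes rose in 12 of 24 cases and fell in 1 (0 without the replicate block), with a median log2 fold change of 1.84. The homeobox gene gsc, a marker of the organizer, had signals of 1823, 4824 and 7276 in lhx1-AS/AcRA caps, against 5.56, 40.8 and 3.51 in lhx1-AS caps (log2 fold change 8.75 ± 1.09, range 7.84 to 9.68, adjusted p = 0.000101). The gene chrd.1, for the BMP antagonist chordin, had 3889, 3075 and 3131 in lhx1-AS/AcRA caps, against 8.35, 23.8 and 37.3 in lhx1-AS caps (log2 fold change 7.42 ± 0.65, range 6.62 to 7.94, adjusted p = 6.22e-06). The gene admp, for a BMP-like ligand of the organizer, had 1324, 1347 and 2357 in lhx1-AS/AcRA caps, against 32.5, 33.2 and 15.996 in lhx1-AS caps (log2 fold change 5.97 ± 0.73, adjusted p = 8.69e-05). None of the 3 exceeded 40.8 on an untreated array. The head gene otx2 did not overlap between the groups but was not called, with 2386, 1861 and 3788 in lhx1-AS/AcRA caps, against 777, 660.0 and 989.6 in lhx1-AS caps (log2 fold change 1.68 ± 0.54, adjusted p = 0.059). It was called with 16 or 64 added to each signal (adjusted p = 0.0184 and 0.00455) and in a model of the 6 arrays alone (adjusted p = 0.000648). Of 21 endoderm genes 13 rose (8 without the replicate block) and 1, sox7, fell, with a median of 2.70. The early endoderm gene darmin had signals of 7816, 5580.1 and 7073 in lhx1-AS/AcRA caps, against 2.83, 5.40 and 33.2 in lhx1-AS caps (log2 fold change 9.73 ± 0.67, range 8.99 to 10.59, adjusted p = 9.61e-07). The zinc finger gene gata4 had 1322, 883 and 2272 in lhx1-AS/AcRA caps, against 26.3, 8.38 and 2.37 in lhx1-AS caps (log2 fold change 7.43 ± 0.82, range 6.25 to 8.6, adjusted p = 3.77e-05). Its relative gata6, already measurable in untreated caps, had 4479.8, 5137 and 5440.1 in lhx1-AS/AcRA caps, against 365, 285 and 432 in lhx1-AS caps (log2 fold change 3.82 ± 0.25, adjusted p = 7.25e-07). The gene a2m, for a protease inhibitor, had 9092, 5894 and 6256 in lhx1-AS/AcRA caps, against 1184, 179.7 and 234 in lhx1-AS caps (log2 fold change 4.24 ± 0.41, range 3.88 to 4.85, adjusted p = 1.28e-05), and here the array of experiment I was the highest in both groups.

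**Figure D2:**
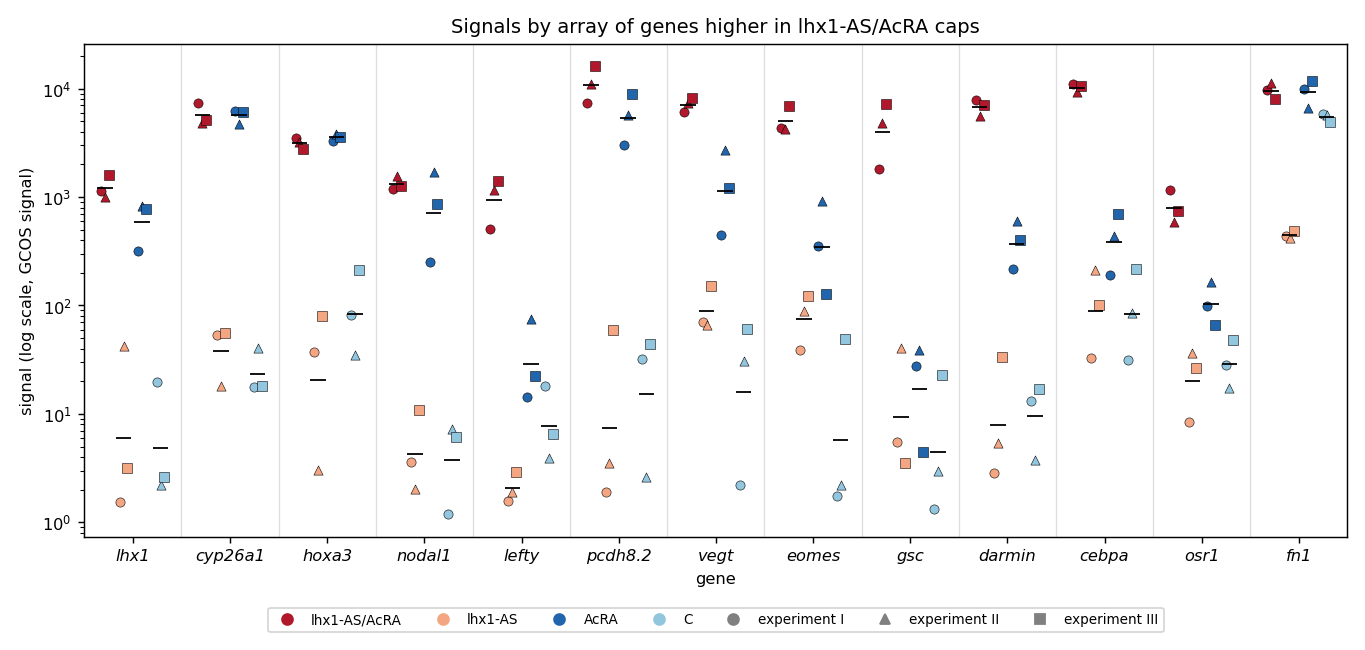
Signals of 13 genes on each of the 12 arrays are shown on a log scale of GCOS signal, with the 4 groups side by side for each gene (lhx1-AS/AcRA, lhx1-AS, AcRA, C), circles, triangles and squares for experiments I, II and III and lines for the geometric mean of 3 arrays. For gsc and lefty the 3 lhx1-AS/AcRA arrays lie between 512 and 7276, above all 3 AcRA arrays at 4.49 to 74.9.

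Of 17 measured FGF genes 6 rose and none fell, with a median log2 fold change of 1.74. The ligand gene fgf8 had signals of 3640.2, 3026 and 2434 in lhx1-AS/AcRA caps, against 222, 406 and 353 in lhx1-AS caps (log2 fold change 3.24 ± 0.33, adjusted p = 2.06e-05). The gene etv4, for an ETS factor that FGF signals switch on, had 6849.5, 3567 and 3827 in lhx1-AS/AcRA caps, against 776, 1636 and 1343 in lhx1-AS caps (log2 fold change 1.93 ± 0.38, adjusted p = 0.00382). The receptor gene fgfr4 had 1678, 597 and 1086 in lhx1-AS/AcRA caps, against 159, 291 and 400.4 in lhx1-AS caps (log2 fold change 1.96 ± 0.41, adjusted p = 0.00565). A second receptor gene, fgfr1, had 871, 1217 and 743 in lhx1-AS/AcRA caps, against 317, 288 and 229.5 in lhx1-AS caps (log2 fold change 1.74 ± 0.23, adjusted p = 0.000148). These 4 were separate between the groups. The receptor gene fgfr2 overlapped and was not called, with 374, 542 and 902 in lhx1-AS/AcRA caps, against 247, 391 and 438 in lhx1-AS caps (log2 fold change 0.70 ± 0.23, adjusted p = 0.0594). It was called when dim probe sets were left out. Of the 6 genes that rose, 5 had their highest treated signal in experiment I. Over all 983 higher probe sets this held for 382, against 282 in experiment II and 319 in experiment III.

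Of 44 Wnt genes 13 rose (8 without the replicate block) and 3 fell, and the 3 became 1 without lhx1-AS/AcRA array 1, lhx1-AS/AcRA array 3 or lhx1-AS array 3. The 3 are near the share of all probe sets called lower (6.64%). The receptor gene ror2 had signals of 2407, 956 and 1029 in lhx1-AS/AcRA caps, against 3.19, 10.9 and 4.56 in lhx1-AS caps (log2 fold change 7.94 ± 0.62, range 7.17 to 8.61, adjusted p = 2.44e-06). The ligand gene wnt8a had 355, 1387 and 428 in lhx1-AS/AcRA caps, against 29.0, 38.4 and 62.1 in lhx1-AS caps (log2 fold change 3.86 ± 0.58, range 3.01 to 4.50, adjusted p = 0.000485), with the array of experiment II above the other treated arrays. The gene frzb, for a secreted Wnt antagonist, had 2077, 1787 and 3940 in lhx1-AS/AcRA caps, against 30.2, 80.7 and 112 in lhx1-AS caps (log2 fold change 5.24 ± 0.65, adjusted p = 9.62e-05). Another antagonist gene, sfrp1, had 452, 793 and 335 in lhx1-AS/AcRA caps, against 31.0, 31.9 and 87.8 in lhx1-AS caps (log2 fold change 3.48 ± 0.66, adjusted p = 0.00258). One more, frzb2, was not called (log2 fold change 1.65, adjusted p = 0.221). The planar polarity gene prickle1, which was in no list, had 4513, 4784 and 3182 in lhx1-AS/AcRA caps, against 67.5, 10.8 and 124 in lhx1-AS caps (log2 fold change 6.51 ± 0.70, range 5.35 to 7.15, adjusted p = 3.04e-05). Among the 3 that fell was dvl3, for one of the dishevelled proteins that relay Wnt signals, with 324, 209 and 320.0 in lhx1-AS/AcRA caps, against 2206, 3295 and 3152 in lhx1-AS caps (log2 fold change -3.35 ± 0.30, adjusted p = 6.45e-06). The receptor gene fzd8 was not called and its groups overlapped, with 3682, 2389 and 5707 in lhx1-AS/AcRA caps, against 1786, 1598 and 3081 in lhx1-AS caps (log2 fold change 0.84 ± 0.33, adjusted p = 0.124). It was called in a model of the 6 arrays alone.

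In BMP signalling, which keeps ectoderm epidermal, 3 of 33 genes rose and 11 fell, with a median log2 fold change of -0.42. The 3 that rose are close to the share of all probe sets called higher (6.34%). The 3 were the ligand genes bmp2 and admp and the antagonist gene chrd.1. Signals of szl (sizzled), a secreted inhibitor of chordin-cleaving proteases that BMP switches on, were 1.12, 1.57 and 1.58 in lhx1-AS/AcRA caps, against 1822, 2188 and 1592 in lhx1-AS caps (log2 fold change -10.37 ± 0.35, adjusted p = 2.07e-09). These treated arrays lay at the bottom of the scale, so the size of the change rests on signals near 1, but the groups were far apart. The other szl probe set had 15.9, 36.7 and 57.3 in lhx1-AS/AcRA caps, against 852, 1069 and 832 in lhx1-AS caps (log2 fold change -4.82, adjusted p = 0.000709). The homeobox target gene msx1 had 88.5, 163 and 79.5 in lhx1-AS/AcRA caps, against 1695, 881 and 1120.2 in lhx1-AS caps (log2 fold change -3.50 ± 0.28, adjusted p = 2.87e-06). The BMP target id2, an inhibitor of differentiation, had 219.9, 1024 and 315 in lhx1-AS/AcRA caps, against 2019, 4470.3 and 4097 in lhx1-AS caps (log2 fold change -3.01 ± 0.32, adjusted p = 2.75e-05). The treated array of experiment II was the highest of its group in both. The ligand gene bmp4 had 366, 504 and 551 in lhx1-AS/AcRA caps, against 1238, 1705 and 1433 in lhx1-AS caps (log2 fold change -1.63 ± 0.25, adjusted p = 0.000592). Another ligand gene, bmp7.2, had 614, 1834 and 840.4 in lhx1-AS/AcRA caps, against 5028, 7528 and 9412 in lhx1-AS caps (log2 fold change -2.85 ± 0.33, adjusted p = 6.1e-05). One further target, id3, was not called, with 1780, 2011 and 1645 in lhx1-AS/AcRA caps, against 1342, 1426 and 1587 in lhx1-AS caps (log2 fold change 0.32 ± 0.19, adjusted p = 0.344).

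In these bulk preparations fewer cells of a type and less RNA per cell cannot be told apart, which bears on the tissue genes above and below. Of 29 genes of the extracellular matrix 9 rose and none fell. Fibronectin (fn1), on which gastrulating mesoderm migrates, rose on all 4 of its probe sets, the brightest having signals of 9629, 11291 and 8013 in lhx1-AS/AcRA caps, against 433, 418 and 485 in lhx1-AS caps (log2 fold change 4.43 ± 0.21, adjusted p = 3.82e-08). The collagen gene col9a1 had 325, 2859.7 and 2704 in lhx1-AS/AcRA caps, against 4.99, 3.71 and 2.29 in lhx1-AS caps (log2 fold change 8.61 ± 0.69, range 7.90 to 9.56, adjusted p = 2.83e-06). A second collagen gene, col3a1, had 845, 651 and 213 in lhx1-AS/AcRA caps, against 27.1, 12.02 and 40.5 in lhx1-AS caps (log2 fold change 4.37 ± 0.65, range 3.65 to 5.10, adjusted p = 0.000405). The treated array of experiment I was the lowest of the 3 for col9a1 and the highest for col3a1. The membrane protease gene mmp14 had 1853, 1237 and 1625 in lhx1-AS/AcRA caps, against 49.4, 130.5 and 172 in lhx1-AS caps (log2 fold change 3.91 ± 0.38, range 3.31 to 4.27, adjusted p = 1.36e-05). The matrix gene sparc was not called on its brightest probe set, with 309.6, 495 and 151 in lhx1-AS/AcRA caps, against 92.3, 45.7 and 185 in lhx1-AS caps (log2 fold change 1.63 ± 0.52, adjusted p = 0.0573). That probe set was called with 16 added, without lhx1-AS/AcRA array 3 or without lhx1-AS array 3. The other sparc probe set was called, with 448, 210.4 and 382 in lhx1-AS/AcRA caps, against 35.4, 44.9 and 49.2 in lhx1-AS caps (log2 fold change 2.95 ± 0.61, adjusted p = 0.00518).

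Of 41 adhesion and migration genes 9 rose and 4 fell, and without lhx1-AS/AcRA array 3 the 4 became 2. Over all probe sets 6.64% were called lower, so the 4 are not far from that share. E-cadherin (cdh1), the cadherin of epithelia, had signals of 224, 249 and 108 in lhx1-AS/AcRA caps, against 1536, 1027 and 611 in lhx1-AS caps (log2 fold change -2.44 ± 0.24, adjusted p = 1.38e-05). The tight junction claudin gene cldn4 had 3514, 5186 and 936 in lhx1-AS/AcRA caps, against 10671, 12530 and 13027 in lhx1-AS caps (log2 fold change -2.22 ± 0.39, range -2.76 to -1.54, adjusted p = 0.0015). Both epithelial genes were lowest on the treated array of experiment III. Among those that rose, cdh11, for a cadherin of mesenchyme, had 412, 427 and 235 in lhx1-AS/AcRA caps, against 21.4, 47.5 and 6.75 in lhx1-AS caps (log2 fold change 4.18 ± 0.58, range 3.41 to 4.80, adjusted p = 0.000235). The guidance receptor gene epha4 had 1150.3, 644 and 304 in lhx1-AS/AcRA caps, against 56.4, 128 and 128 in lhx1-AS caps (log2 fold change 2.64 ± 0.46, range 2.05 to 3.23, adjusted p = 0.00147). The gene itga5, for a subunit of the fibronectin receptor, had 2302, 5801 and 6156 in lhx1-AS/AcRA caps, against 349.9, 1542 and 2154 in lhx1-AS caps (log2 fold change 2.05 ± 0.25, adjusted p = 9.09e-05), with experiment I low in both groups. The maternal cadherin gene cdh3 was not called and overlapped, with 6252, 6218 and 3455 in lhx1-AS/AcRA caps, against 5941, 6729 and 4267 in lhx1-AS caps (log2 fold change -0.11 ± 0.17, adjusted p = 0.754).

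The genes of the kidney field, the tissue that the treatment is used to induce, rose in part. Of 24 early kidney regulators 9 rose, 2 fell and 13 were not called, with a median log2 fold change of 1.00. The 9 include lhx1 itself, given above. The 2 that fell became 1 without lhx1-AS/AcRA array 2 or 3, lhx1-AS array 2 or 3 or the replicate block. The zinc finger gene osr1 of intermediate mesoderm had signals of 1166, 590.2 and 740.2 in lhx1-AS/AcRA caps, against 8.47, 36.7 and 26.6 in lhx1-AS caps (log2 fold change 5.30 ± 0.59, range 4.60 to 5.81, adjusted p = 4.05e-05). A zinc finger gene of kidney precursors, sall1, had 4206, 2344 and 2484 in lhx1-AS/AcRA caps, against 1042, 359 and 873 in lhx1-AS caps (log2 fold change 2.08 ± 0.21, adjusted p = 1.98e-05). Both were highest on the treated array of experiment I. The Iroquois gene irx2 had 778, 412 and 977 in lhx1-AS/AcRA caps, against 104, 115 and 212 in lhx1-AS caps (log2 fold change 2.32 ± 0.39, adjusted p = 0.00105). Its relative irx3 had 299, 236 and 138 in lhx1-AS/AcRA caps, against 0.949, 6.22 and 49.2 in lhx1-AS caps (log2 fold change 4.99 ± 1.05, range 3.89 to 6.43, adjusted p = 0.00556). The transcription factor gene mecom (evi1) had 429, 181 and 214 in lhx1-AS/AcRA caps, against 16.2, 37.3 and 59.6 in lhx1-AS caps (log2 fold change 2.95 ± 0.73, range 2.16 to 3.50, adjusted p = 0.0161). Its call was lost without lhx1-AS/AcRA array 1 or lhx1-AS array 1 (adjusted p = 0.124 and 0.0827).

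The paired box genes of the kidney stayed near the bottom of the signal range. Signals of pax8 were 8.89, 43.9 and 22.7 in lhx1-AS/AcRA caps, against 29.6, 45.2 and 30.8 in lhx1-AS caps (log2 fold change -0.74 ± 0.88, adjusted p = 0.68). Those of pax2 on its brightest probe set were 50.0, 64.6 and 26.7 in lhx1-AS/AcRA caps, against 36.5, 25.9 and 8.31 in lhx1-AS caps (log2 fold change 1.15 ± 0.59, adjusted p = 0.263), while 2 of its 8 probe sets were called higher. The Wilms tumour gene wt1, which marks the glomus, had 19.1, 39.5 and 51.4 in lhx1-AS/AcRA caps, against 30.7, 17.5 and 44.1 in lhx1-AS caps (log2 fold change 0.24 ± 0.73, adjusted p = 0.885). The semaphorin receptor gene nrp1 had 36.5, 48.5 and 61.1 in lhx1-AS/AcRA caps, against 26.4, 60.8 and 109 in lhx1-AS caps (log2 fold change -0.23 ± 0.58, adjusted p = 0.855). On the probe sets shown, these 4 genes overlapped between the groups and were at most 109 on the 6 arrays.

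Of 11 genes of the differentiated tubule and glomerulus 4 rose and none fell, and the 4 became 2 without lhx1-AS/AcRA array 1 or without the replicate block. The amino acid transporter gene slc6a14.2 had signals of 1718, 920.5 and 694 in lhx1-AS/AcRA caps, against 47.3, 145 and 126 in lhx1-AS caps (log2 fold change 3.43 ± 0.47, range 2.78 to 3.86, adjusted p = 0.000204). A second amino acid transporter gene, slc7a8, had 634, 521 and 332 in lhx1-AS/AcRA caps, against 269, 141 and 126 in lhx1-AS caps (log2 fold change 1.51 ± 0.28, adjusted p = 0.00246). Another slc7a8 probe set rose more, with 1385.5, 704 and 855 in lhx1-AS/AcRA caps, against 72.9, 59.1 and 44.0 in lhx1-AS caps (log2 fold change 4.04 ± 0.29, adjusted p = 1.14e-06). The gene fbp1, for an enzyme of glucose synthesis, had 8422, 5668 and 5432 in lhx1-AS/AcRA caps, against 5192, 3146 and 2829 in lhx1-AS caps (log2 fold change 0.83 ± 0.18, adjusted p = 0.0081). It did not pass without the pairing by experiment (adjusted p = 0.055), without lhx1-AS/AcRA array 1 (adjusted p = 0.0566) or without lhx1-AS array 3 (adjusted p = 0.0515). The sodium pump subunit gene atp1b1 had 1274, 692 and 906 in lhx1-AS/AcRA caps, against 661, 437 and 563 in lhx1-AS caps (log2 fold change 0.77 ± 0.20, adjusted p = 0.0186). It did not pass without the pairing (adjusted p = 0.203), nor without lhx1-AS/AcRA array 1 or 3 or lhx1-AS array 1 or 2 (adjusted p = 0.0534 to 0.0924). For all 4 genes the treated array of experiment I was the highest, as it was for 6 of the 9 early regulators that rose. That array was also the highest of its group for 382 of all 983 higher probe sets.

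Lateral plate, blood and heart genes changed both ways, 4 of 27 rising and 5 falling. The factor gene cebpa, known from myeloid and liver cells, rose on both its probe sets, the brighter with signals of 10947, 9214 and 10492 in lhx1-AS/AcRA caps, against 32.5, 210.5 and 101 in lhx1-AS caps (log2 fold change 6.85 ± 0.49, range 6.15 to 7.47, adjusted p = 1.14e-06). The apelin receptor gene aplnr of early mesoderm and vessels had 1401, 2621 and 2945 in lhx1-AS/AcRA caps, against 131, 41.1 and 209 in lhx1-AS caps (log2 fold change 4.41 ± 0.47, range 3.75 to 4.83, adjusted p = 2.71e-05). The homeobox gene nkx2-3 of heart and pharynx was lower, with 41.5, 21.3 and 59.1 in lhx1-AS/AcRA caps, against 970.0, 188 and 284 in lhx1-AS caps (log2 fold change -3.32 ± 0.67, range -3.91 to -2.58, adjusted p = 0.00446). The caudal gene cdx4, which acts in posterior and blood-forming mesoderm, had 134, 503 and 37.1 in lhx1-AS/AcRA caps, against 26.8, 18.2 and 5.12 in lhx1-AS caps (log2 fold change 3.32 ± 0.84, range 2.79 to 4.15, adjusted p = 0.0171). Its call was lost without lhx1-AS/AcRA array 1 or 2 or lhx1-AS array 2 or 3 (adjusted p = 0.0689 to 0.0942), and without the pairing by experiment (adjusted p = 0.0769).

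Neural genes rose in 13 of 40 cases and fell in none, with a median log2 fold change of 0.92. The 13 became 8, with 1 gene lower, without lhx1-AS/AcRA array 3, and likewise 8 and 1 without lhx1-AS array 1. The zinc finger gene zic2 of the early neural plate rose on all 3 of its probe sets, the brightest with signals of 4480, 3431 and 2614 in lhx1-AS/AcRA caps, against 158, 197 and 372 in lhx1-AS caps (log2 fold change 3.92 ± 0.42, adjusted p = 3.07e-05). The forkhead gene foxd4l1.1 of the same tissue had 347, 780.2 and 122 in lhx1-AS/AcRA caps, against 1.07, 3.31 and 16.8 in lhx1-AS caps (log2 fold change 6.36 ± 1.196, range 5.27 to 8.12, adjusted p = 0.00255). The nuclear receptor gene nr2f1 had 537, 214 and 957 in lhx1-AS/AcRA caps, against 62.9, 50.9 and 114 in lhx1-AS caps (log2 fold change 2.75 ± 0.53, range 2.35 to 3.33, adjusted p = 0.0029). The midbrain-hindbrain gene gbx2.2 had 579, 168 and 60.7 in lhx1-AS/AcRA caps, against 8.83, 9.65 and 3.64 in lhx1-AS caps (log2 fold change 4.74 ± 0.85, range 4.198 to 5.48, adjusted p = 0.00176). In gbx2.2 and foxd4l1.1 the treated array of experiment III was the lowest, and in nr2f1 it was the highest. The gene sox11, for a factor of neural progenitors, did not overlap between the groups but was not called, with 12477, 12154 and 13880 in lhx1-AS/AcRA caps, against 4615, 7717 and 8169.6 in lhx1-AS caps (log2 fold change 0.95 ± 0.31, adjusted p = 0.0663). It was called with 16 or 64 added, after quantile normalization, in a model of the 6 arrays alone and without lhx1-AS array 3 (adjusted p = 0.0149 to 0.0464).

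**Figure D3:**
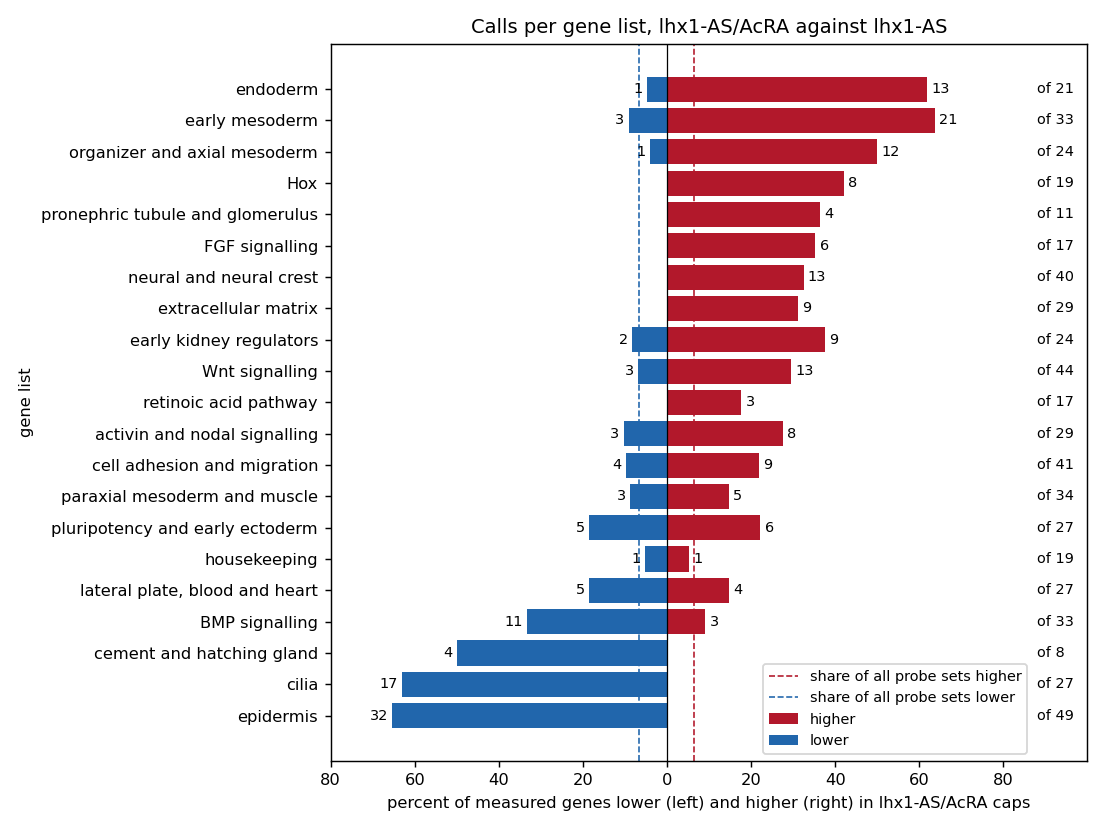
Bars give the percent of the measured genes of each of 21 lists that were higher (right, red) or lower (left, blue) in lhx1-AS/AcRA caps than in lhx1-AS caps, with the number of genes beside each bar and the number measured at the right, and dashed lines mark the share of all probe sets called, 6.34% higher and 6.64% lower. Early mesoderm and endoderm stand at the top of the higher side, with 21 of 33 and 13 of 21, and epidermis and cilia at the end of the lower side, with 32 of 49 and 17 of 27.

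Epidermal genes, counted on the brightest probe set of each, fell in 32 of 49 cases and rose in none, with a median log2 fold change of -2.14. On any probe set 36 fell and 1, krt18.1, rose. The summed signal of the 49 genes was 48942 to 70815 in lhx1-AS/AcRA caps, against 141250 to 156110 in lhx1-AS caps. Intelectin (itln1), a lectin of mucus-secreting goblet cells, had signals of 134, 88.5 and 88.3 in lhx1-AS/AcRA caps, against 5366, 4554 and 7692 in lhx1-AS caps (log2 fold change -5.82 ± 0.39, adjusted p = 7.46e-07). The keratin gene krt12.4 had 652, 472 and 329 in lhx1-AS/AcRA caps, against 16721, 11891 and 13068 in lhx1-AS caps (log2 fold change -4.88 ± 0.23, adjusted p = 3.82e-08) on the probe set that changed most, and -2.56 on the brightest. A further keratin gene, krt70, fell on all 5 of its probe sets, the one that changed most having 202, 499.8 and 50.4 in lhx1-AS/AcRA caps, against 8307, 9428 and 10194 in lhx1-AS caps (log2 fold change -5.75 ± 0.55, range -6.62 to -4.79, adjusted p = 1.23e-05). A mucin-like gene of goblet cells, otogl2, had 139.6, 493 and 25.5 in lhx1-AS/AcRA caps, against 9906, 8452 and 7741 in lhx1-AS caps (log2 fold change -6.16 ± 0.63, range -7.23 to -5.04, adjusted p = 2.05e-05) on the probe set that changed most. In otogl2 a total of 3 of 4 probe sets fell, and the brightest was not called (-0.49, adjusted p = 0.0921). For krt12.5 the signals were 886, 6172 and 170.4 in lhx1-AS/AcRA caps, against 12335, 14976 and 11790 in lhx1-AS caps (log2 fold change -3.73 ± 0.71, range -5.03 to -2.53, adjusted p = 0.0028), and the array of experiment II kept far more signal than the other treated arrays.

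The homeobox gene dlx3, for a transcription factor of ectoderm, had signals of 104, 277 and 63.0 in lhx1-AS/AcRA caps, against 3890.2, 3903 and 4049.9 in lhx1-AS caps (log2 fold change -5.02 ± 0.34, range -5.62 to -4.60, adjusted p = 8.98e-07). The grainyhead factor gene grhl1 had 559.6, 1164 and 182 in lhx1-AS/AcRA caps, against 7186, 5799.9 and 6096 in lhx1-AS caps (log2 fold change -3.69 ± 0.40, range -4.36 to -3.03, adjusted p = 2.97e-05). The Krüppel-like gene klf17 of early ectoderm had 154, 534 and 60.8 in lhx1-AS/AcRA caps, against 2077, 2133 and 2296 in lhx1-AS caps (log2 fold change -3.66 ± 0.42, range -4.31 to -3.13, adjusted p = 4.95e-05). In each of the 3 the array of experiment II was the highest treated array. The fucosyltransferase gene fut6 had 20.7, 59.6 and 8.58 in lhx1-AS/AcRA caps, against 1296, 822 and 830.1 in lhx1-AS caps (log2 fold change -5.45 ± 0.49, range -6.28 to -4.77, adjusted p = 7.24e-06). The protease gene xepsin had 22.2, 2.90 and 47.6 in lhx1-AS/AcRA caps, against 1153, 940.2 and 432 in lhx1-AS caps (log2 fold change -5.74 ± 0.82, range -6.89 to -4.59, adjusted p = 0.000312). The gene mmp3, for a secreted metalloprotease, had 3.19, 55.8 and 112 in lhx1-AS/AcRA caps, against 823, 1135 and 1617 in lhx1-AS caps (log2 fold change -5.40 ± 0.70, range -6.22 to -4.01, adjusted p = 0.000132). The proton pump subunit gene atp6v1b1, a mark of ionocytes, had 7.08, 37.2 and 1.74 in lhx1-AS/AcRA caps, against 856, 232 and 341 in lhx1-AS caps (log2 fold change -5.72 ± 0.86, range -7.12 to -4.44, adjusted p = 0.000439). Of the 32 genes that fell, 19 had their highest treated signal in experiment II, 6 in experiment I and 7 in experiment III, while over all 1030 lower probe sets these numbers were 378, 319 and 333. A simple epithelial keratin gene, krt18.1, was not called on its brighter probe set, with 9957, 8888 and 11718 in lhx1-AS/AcRA caps, against 7767, 4569.8 and 9274 in lhx1-AS caps (log2 fold change 0.55 ± 0.24, adjusted p = 0.187). Its other probe set was called higher, with 4648, 4249 and 2841 in lhx1-AS/AcRA caps, against 809, 211 and 427 in lhx1-AS caps (log2 fold change 3.2 ± 0.34, adjusted p = 2.99e-05).

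Genes of multiciliated cells fell in 17 of 27 cases and rose in none, with a median log2 fold change of -1.55. The summed signal of the 27 genes was 5759 to 7451 in lhx1-AS/AcRA caps, against 11502 to 19911 in lhx1-AS caps. The centrin gene cetn4 had signals of 124, 90.6 and 119 in lhx1-AS/AcRA caps, against 2317, 859.7 and 1708 in lhx1-AS caps (log2 fold change -3.78 ± 0.22, adjusted p = 2.83e-07). The tektin gene tekt4 of the axoneme had 2.94, 35.8 and 23.0 in lhx1-AS/AcRA caps, against 795, 712 and 561 in lhx1-AS caps (log2 fold change -5.67 ± 0.62, range -6.51 to -4.64, adjusted p = 3.57e-05). The radial spoke gene rsph1 had 34.8, 28.8 and 22.1 in lhx1-AS/AcRA caps, against 1944, 264 and 624 in lhx1-AS caps (log2 fold change -4.61 ± 0.44, range -5.11 to -3.99, adjusted p = 1.14e-05). For all 3 the untreated array of experiment I was the highest of its group. The cyclin gene ccno, needed for making many centrioles, had 24.7, 17.9 and 63.9 in lhx1-AS/AcRA caps, against 1021, 472 and 846 in lhx1-AS caps (log2 fold change -4.61 ± 0.38, adjusted p = 3.42e-06). A second tektin gene, tekt2, had 8.63, 1.16 and 2.82 in lhx1-AS/AcRA caps, against 1007, 138 and 324 in lhx1-AS caps (log2 fold change -6.87 ± 0.48, adjusted p = 1.01e-06). The median change of the 17 genes on the log2(signal + 64) scale was -2.36 in experiment I, -1.27 in experiment II and -1.19 in experiment III. The centrin gene cetn1 was not called and overlapped, with 2818, 1403 and 3729 in lhx1-AS/AcRA caps, against 2068, 1532 and 2819.8 in lhx1-AS caps (log2 fold change 0.24 ± 0.22, adjusted p = 0.578).

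The cement gland is a mucus organ at the front of the ectoderm, and the hatching gland secretes enzymes that free the embryo. Of 8 measured genes in the list for both glands, which also holds head genes such as otx2, 4 fell and none rose. Signals of agr2, a secretory gene of the gland, were 57.6, 44.9 and 46.0 in lhx1-AS/AcRA caps, against 6357, 3169.6 and 3771 in lhx1-AS caps (log2 fold change -6.43 ± 0.32, adjusted p = 5.36e-08). Those of its relative ag1, which was in no list, were 43.1, 333 and 119 in lhx1-AS/AcRA caps, against 2709, 5431 and 5339.7 in lhx1-AS caps (log2 fold change -5.16 ± 0.41, range -5.77 to -4.56, adjusted p = 2.66e-06). The retinoid isomerase gene rpe65 had 81.4, 76.9 and 157 in lhx1-AS/AcRA caps, against 2073, 1869 and 1904 in lhx1-AS caps (log2 fold change -4.29 ± 0.24, adjusted p = 1.51e-07). The homeobox gene dlx5 had 29.5, 56.4 and 52.4 in lhx1-AS/AcRA caps, against 701, 370.1 and 674 in lhx1-AS caps (log2 fold change -3.66 ± 0.37, adjusted p = 1.78e-05). Each of these 4 was at most 333 on every treated array and at least 370.1 on every untreated one.

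**Figure D4:**
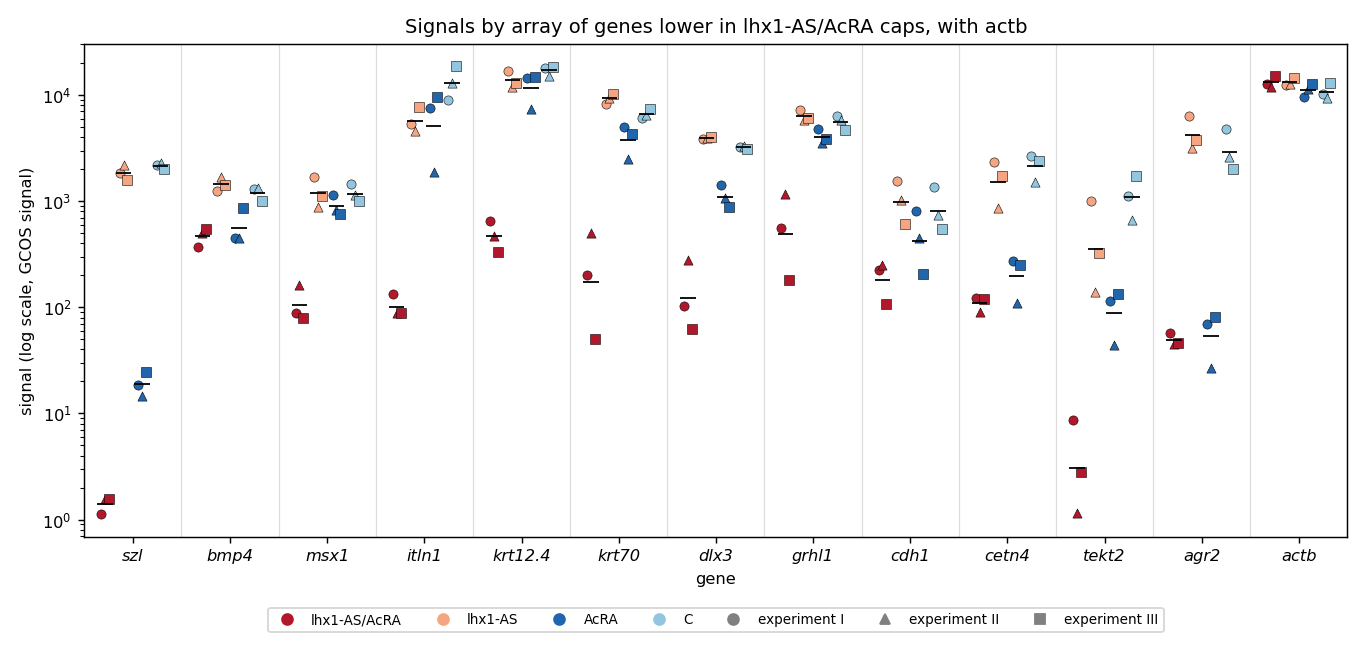
Signals of 13 genes on each of the 12 arrays are shown on a log scale of GCOS signal, with the 4 groups side by side for each gene (lhx1-AS/AcRA, lhx1-AS, AcRA, C), symbols for the experiments and lines for the geometric mean of 3 arrays. On the probe sets shown, the 3 lhx1-AS/AcRA arrays of itln1 and krt12.4 lie at 88.3 to 652, below all AcRA, lhx1-AS and C arrays at 1889 or more. The actin gene actb stays between 9405 and 15139 on all 12.

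Genes of unspecialised early cells divided, 6 of 27 rising and 5 falling, and the 5 became 3 without lhx1-AS/AcRA array 2, lhx1-AS array 3 or the replicate block. The RNA-binding protein gene lin28a had signals of 7045, 6064 and 5183 in lhx1-AS/AcRA caps, against 664, 1864 and 2088 in lhx1-AS caps (log2 fold change 2.14 ± 0.32, range 1.55 to 2.49, adjusted p = 0.000429). The ectodermal factor gene tfap2a had 223, 480.5 and 562 in lhx1-AS/AcRA caps, against 1015, 2046 and 2476 in lhx1-AS caps (log2 fold change -2.14 ± 0.30, adjusted p = 0.000237). The Krüppel-like gene klf17.1 had 108, 384 and 38.1 in lhx1-AS/AcRA caps, against 684, 1307 and 998 in lhx1-AS caps (log2 fold change -3.05 ± 0.42, adjusted p = 0.000247). The POU gene pou5f3.1, which keeps cells uncommitted, was not called, with 6173, 4948 and 5211 in lhx1-AS/AcRA caps, against 4529, 3595 and 4343 in lhx1-AS caps (log2 fold change 0.39 ± 0.23, adjusted p = 0.339). Among 19 housekeeping genes 1 rose, 1 fell and 17 were not called, and neither of the 2 was called without the replicate block. The actin gene actb overlapped, with 12835, 12002 and 15139 in lhx1-AS/AcRA caps, against 12394, 12724 and 14547 in lhx1-AS caps (log2 fold change 0.01 ± 0.14, adjusted p = 0.98). The elongation factor gene eef1a1 overlapped as well, with 20132, 23593 and 25796 in lhx1-AS/AcRA caps, against 19790, 22346 and 21600 in lhx1-AS caps (log2 fold change 0.12 ± 0.13, adjusted p = 0.657). The gene that rose was gapdh, with overlapping signals of 589, 1074 and 1341 in lhx1-AS/AcRA caps, against 229, 790.1 and 645 in lhx1-AS caps (log2 fold change 0.96 ± 0.21, adjusted p = 0.00804). Its call rested on the pairing, since experiment I was low in both groups, and its adjusted p was 0.431 without the pairing and 0.0599 without lhx1-AS/AcRA array 1.

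Outside the lists, the named genes with the largest changes were mixed in function. The gap junction gene gjb2 had signals of 10063, 7064 and 5682 in lhx1-AS/AcRA caps, against 219, 141 and 114 in lhx1-AS caps (log2 fold change 5.60 ± 0.35, adjusted p = 3.72e-07). The acetyltransferase gene nat8.6 had 1350.5, 4539.9 and 2634 in lhx1-AS/AcRA caps, against 13.6, 3.304 and 34.0 in lhx1-AS caps (log2 fold change 7.78 ± 0.97, range 6.14 to 8.69, adjusted p = 0.0001). The mitochondrial creatine kinase gene ckmt1b had 3137, 872 and 2493 in lhx1-AS/AcRA caps, against 14.8, 1.997 and 28.6 in lhx1-AS caps (log2 fold change 7.65 ± 0.63, range 7.05 to 8.13, adjusted p = 3.42e-06). The plasma glycoprotein gene hrg had 4694, 408 and 2317 in lhx1-AS/AcRA caps, against 1.79, 3.91 and 17.3 in lhx1-AS caps (log2 fold change 8.38 ± 0.75, range 7.36 to 9.07, adjusted p = 6.85e-06). In the last 3 the treated arrays differed among themselves by larger ratios than in gjb2.

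The largest fall by the naming rule was that of LOC100158288, a gene with no descriptive symbol in the annotation, with 215, 11.2 and 63.4 in lhx1-AS/AcRA caps, against 11751, 4454 and 6489.6 in lhx1-AS caps (log2 fold change -7.03 ± 0.52, range -7.64 to -6.49, adjusted p = 1.42e-06). The ETS factor gene elf1 fell, with 367, 588 and 206 in lhx1-AS/AcRA caps, against 5311, 4541 and 4412 in lhx1-AS caps (log2 fold change -3.74 ± 0.24, adjusted p = 5.25e-07). The gene elovl7, for a fatty acid elongase, had 193, 458 and 79.4 in lhx1-AS/AcRA caps, against 3919, 3392 and 2949 in lhx1-AS caps (log2 fold change -4.15 ± 0.40, range -4.84 to -3.58, adjusted p = 1.23e-05). The annexin gene anxa9 had 1.03, 1.35 and 21.7 in lhx1-AS/AcRA caps, against 107, 145 and 209.6 in lhx1-AS caps (log2 fold change -5.57 ± 0.66, range -6.63 to -4.93, adjusted p = 6.59e-05). The villin-like gene vill fell, with 117, 164 and 33.8 in lhx1-AS/AcRA caps, against 4642, 2734 and 4326 in lhx1-AS caps (log2 fold change -5.46 ± 0.40, range -6.07 to -4.82, adjusted p = 1.31e-06). The chitobiase gene ctbs had 195, 624 and 187 in lhx1-AS/AcRA caps, against 7412, 9152 and 7147 in lhx1-AS caps (log2 fold change -4.79 ± 0.29, adjusted p = 3.53e-07). The gene tbc1d24.2 had 28.7, 4.28 and 3.91 in lhx1-AS/AcRA caps, against 3735, 933 and 905 in lhx1-AS caps (log2 fold change -7.55 ± 0.57, range -8.31 to -7.11, adjusted p = 1.85e-06). The tubulin gene tuba1cl.3 fell on all 3 of its probe sets, the one shown with 55.2, 57.5 and 48.0 in lhx1-AS/AcRA caps, against 2725, 1958 and 4154 in lhx1-AS caps (log2 fold change -5.72 ± 0.30, adjusted p = 9.93e-08). Signals of tcaf1 were 70.5, 19.8 and 73.4 in lhx1-AS/AcRA caps, against 3209.7, 468 and 1085 in lhx1-AS caps (log2 fold change -4.65 ± 0.43, adjusted p = 8.77e-06).

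Repeated measures of the same gene were compared within the arrays. Of 2021 genes with more than 1 probe set, 437 had at least 1 called, 106 of these had every probe set called in the same direction, 329 had every probe set of 1 sign, and 2, pim1 and polr2i, had probe sets called both ways. The 437 were picked by a call in these data and no share over all 2021 is given, so these numbers are a description. Xenopus laevis carries pairs of homeologous genes, L and S, from its 2 parent genomes. Of 1017 pairs with a probe set for each, both homeologs were higher in 41 and lower in 39, none were called in opposite directions, and in 150 pairs 1 homeolog was called, L in 77 and S in 73. The log2 fold changes of L and S correlated at 0.617 across the 1017 pairs, whose probe sets can share sequence and hybridise to both RNAs, which the array cannot separate.

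The response of injected caps was then set beside that of uninjected caps, with no array shared between the 2 comparisons. In uninjected caps, 820 probe sets (5.29%) were higher and 797 (5.14%) lower in AcRA than in C. Both responses were higher for 476 probe sets, 48.4% of those higher in injected caps and 58.0% of those higher in uninjected caps, and both were lower for 442, 42.9% and 55.5%. Opposite calls were made for 7 probe sets, 5 higher in injected and lower in uninjected caps and 2 the other way. Across 15503 probe sets the 2 responses correlated at 0.564, or at 0.687 with 64 added to each signal, a description over probe sets measured on the same 3 experiments. The difference of the responses was called higher in injected caps for 104 probe sets (0.671%) and lower for 135 (0.871%). These counts moved by over 1.5 times without AcRA array 1 (59 and 73), AcRA array 3 (66 and 73), C array 1 (69 and 75), lhx1-AS array 3 (63 and 72) or lhx1-AS/AcRA array 1 (52 and 86), and the count of lower probe sets also without C array 2 (89) or lhx1-AS/AcRA array 2 (215). The difference of the responses contains the untreated change (lhx1-AS against C) as a term with its sign turned. Overlap of the 2 kinds of calls is therefore partly built in and is given as a description. Of the 104, 49 were called lower in lhx1-AS than in C caps. Of the 135, 24 were called higher in lhx1-AS than in C caps. Caps without treatment differed (lhx1-AS against C) for 38.1% of the probe sets with a called difference, against 17.8% of all probe sets.

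Of 24 organizer genes 3 had a called higher response in injected caps, and so did 3 of 21 endoderm genes. The genes given next come from several lists and do not stand for these counts. The signals of the nodal antagonist gene lefty in uninjected caps were 14.3, 74.9 and 22.4 in AcRA caps, against 18.2, 3.93 and 6.56 in C caps (log2 fold change 1.89, adjusted p = 0.18), and the difference of the responses was 6.94 ± 1.13 (adjusted p = 0.00815). For gsc they were 27.8, 38.6 and 4.49 in AcRA caps, against 1.32, 2.99 and 22.8 in C caps (log2 fold change 1.92, adjusted p = 0.361), and the difference of the responses was 6.84 ± 1.55 (adjusted p = 0.0472). For admp they were 47.3, 88.6 and 17.9 in AcRA caps, against 31.8, 6.27 and 43.7 in C caps (log2 fold change 1.03, adjusted p = 0.498), and the difference of the responses was 4.93 ± 1.04 (adjusted p = 0.0322). None of lefty, gsc and admp was called in uninjected caps. The difference of lefty remained called without any 1 of the 12 arrays. Those of gsc and admp were not called in 9 of these 12 cases (range 5.25 to 7.80 and range 4.16 to 5.98), nor without the replicate block. The endoderm gene gata4 had uninjected signals of 33.1, 70.3 and 60.3 in AcRA caps, against 5.06, 14.98 and 20.8 in C caps (log2 fold change 2.16, adjusted p = 0.131), and the difference of the responses was 5.27 ± 1.16 (adjusted p = 0.0417). In darmin they were 217, 596 and 400.3 in AcRA caps, against 13.2, 3.76 and 17.12 in C caps (log2 fold change 5.30, adjusted p = 0.000195), and the difference of the responses was 4.43 ± 0.95 (adjusted p = 0.0356). The response of darmin was called in both kinds of caps. Differences were not called without 1 array in 9 of 12 cases for gata4 (range 4.09 to 6.44) and in 8 for darmin (range 3.70 to 5.29), and for neither without the replicate block. The uninjected signals of cebpa were 193, 436 and 702 in AcRA caps, against 31.5, 85.0 and 219 in C caps (log2 fold change 2.22, adjusted p = 0.00984), and the difference of the responses was 4.63 ± 0.69 (adjusted p = 0.00582). For cebpa the difference was not called without the replicate block. The 2 responses had opposite signs in 6 of the named genes with a called difference, otx2, fzd8, atp1b1, fgfr2, klf17 and klf17.1. In otx2 the uninjected signals were 46.0, 141 and 24.03 in AcRA caps, against 456, 174 and 233 in C caps (log2 fold change -2.30, adjusted p = 0.0146), and the difference of the responses was 3.98 ± 0.76 (adjusted p = 0.0203). This difference was not called in 4 of the 12 cases without 1 array (range 3.28 to 4.90). In fzd8 they were 68.4, 26.4 and 57.5 in AcRA caps, against 1734, 1718 and 1134 in C caps (log2 fold change -4.996, adjusted p = 1.59e-06), and the difference of the responses was 5.83 ± 0.46 (adjusted p = 7.07e-05). The gene atp1b1 was called in opposite directions, with 920.3, 416 and 553 in AcRA caps, against 1048, 878 and 993 in C caps (log2 fold change -0.70, adjusted p = 0.0363), and the difference of the responses was 1.47 ± 0.28 (adjusted p = 0.0189). Its difference was not called in 4 of the 12 cases nor without the replicate block. Fibronectin differed by its untreated level, since fn1 had 10013, 6691 and 11720 in AcRA caps, against 5816, 5727 and 4923 in C caps (log2 fold change 0.75, adjusted p = 0.0345), and the difference of the responses was 3.67 ± 0.29 (adjusted p = 7.07e-05). The treated caps of both kinds overlapped in fn1, and the 3 lhx1-AS arrays, at 433, 418 and 485, were low.

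The epidermis list held 11 of the genes with a lower response in injected caps and 1 with a higher one. In uninjected caps itln1 had signals of 7519, 1889 and 9681 in AcRA caps, against 9013, 12909 and 18613 in C caps (log2 fold change -1.33, adjusted p = 0.0479), and the difference of the responses was -4.49 ± 0.55 (adjusted p = 0.00193). The keratin gene krt12.4 had 14562, 7432 and 14847 in AcRA caps, against 18122, 15004 and 18529 in C caps (log2 fold change -0.55, adjusted p = 0.175), and the difference of the responses was -4.33 ± 0.32 (adjusted p = 7.07e-05). For krt70 they were 4978, 2498 and 4266 in AcRA caps, against 6058, 6459.8 and 7463 in C caps (log2 fold change -0.82, adjusted p = 0.465), and the difference of the responses was -4.93 ± 0.78 (adjusted p = 0.00732). On the probe sets shown, uninjected caps kept these 3 RNAs at 1889 or more under treatment. Those of krt12.4 and krt70 were the probe sets that changed most. On the brightest krt12.4 probe set, lhx1-AS/AcRA caps had 2760, 4985 and 1302. Another krt70 probe set had 7863, 11621 and 1025 in lhx1-AS/AcRA caps, and the difference was called on 2 of 5 krt70 probe sets. The epidermis list counted 17 lower genes of 49 in uninjected caps, and 32 in injected caps. Other lists went either way. Endoderm counted 5 of 21 higher in uninjected and 13 in injected caps, and organizer 7 of 24 and 12. Cilia counted 20 of 27 lower in uninjected and 17 in injected caps. Hox counted 11 of 19 higher in uninjected and 8 in injected caps, and the retinoic acid pathway 7 of 17 and 3. The regulator dlx3 had uninjected signals of 1431, 1060.2 and 883 in AcRA caps, against 3233, 3319.5 and 3124 in C caps (log2 fold change -1.55, adjusted p = 0.0106), and the difference of the responses was -3.47 ± 0.49 (adjusted p = 0.00446). Of 33 BMP genes 2 had a called higher and 2 a called lower response in injected caps. Of the same 33, 13 fell in uninjected caps and 11 in injected caps. Of the BMP targets with a lower response, msx1 had 1142, 825 and 761 in AcRA caps, against 1444, 1142 and 996 in C caps (log2 fold change -0.40, adjusted p = 0.496), and the difference of the responses was -3.11 ± 0.40 (adjusted p = 0.00222). The other, szl, fell in both kinds of caps, with uninjected signals of 18.3, 14.7 and 24.7 in AcRA caps, against 2214, 2278 and 1989 in C caps (log2 fold change -6.84, adjusted p = 2.64e-07), and the difference of the responses was -3.52 ± 0.49 (adjusted p = 0.00446), a difference that rests on the treated signals near 1 in injected caps. With 64 added it was -0.13 (adjusted p = 0.918), and on the other szl probe set the difference was 0.82 (adjusted p = 0.868).

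Over all probe sets 0.671% had a called higher and 0.871% a called lower response, so a count of 0 or 1 in a list is near that background. Of 27 genes of unspecialised early cells 1 was higher and 3 were lower. Of 8 cement and hatching gland genes 1 was higher and 1 lower, otx2 and rpe65. The count was 0 of 33 for early mesoderm, 0 of 17 for the retinoic acid pathway and 0 of 34 for paraxial mesoderm and muscle. It was 1 of 27 for cilia and 1 of 19 for Hox. The Hox gene was hoxc6, with uninjected signals of 193, 317 and 471 in AcRA caps, against 2.84, 37.0 and 6.88 in C caps (log2 fold change 5.09, adjusted p = 6.27e-05), and the difference of the responses was -4.54 ± 0.79 (adjusted p = 0.0119). Its difference was not called without AcRA array 3 or without the replicate block. In the cilia list it was tekt2 (difference -3.24 ± 0.68, adjusted p = 0.031), whose difference was not called in 8 of the 12 cases without 1 array and became 0.20 after 64 was added to each signal. The differences that were not called were 0.16 ± 0.98, adjusted p = 0.979 for vegt, 0.14 ± 1.34, adjusted p = 0.984 for eomes and -0.34 ± 0.32, adjusted p = 0.787 for cetn4. For agr2 the difference was -0.66 ± 0.45, adjusted p = 0.675. Missing calls do not show that the responses were alike.

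**Figure D5:**
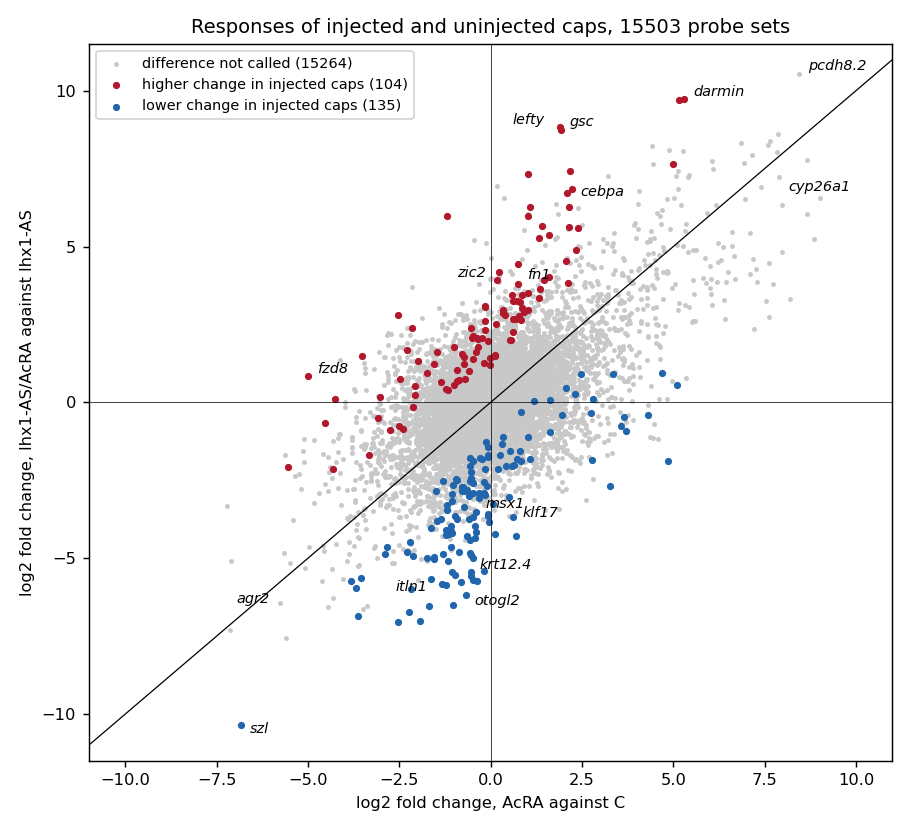
Each point is 1 of 15503 probe sets, with its log2 fold change of AcRA over C on the x axis and of lhx1-AS/AcRA over lhx1-AS on the y axis, and red points are the 104 probe sets with a called higher change in injected caps, blue points the 135 with a called lower one, and the diagonal marks equal responses. The points run along the diagonal (correlation 0.564), with gsc and lefty far above it and itln1 and otogl2 far below.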

How the data were processed

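RNA of Xenopus laevis animal caps was measured on 12 Affymetrix Xenopus laevis arrays (first generation), 4 groups of 3, and groups and experiment numbers came from the labels. The deposited intensity values are linear signals that the authors made with GCOS, and every array has a trimmed mean of 500.1 (2% trimmed at each end). Detection calls were not used here, and the version of GCOS was not given in the sources used here. Scaling to a common mean hides any change in total RNA.

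Signals under 1 (596, or 0.318%) were raised to 1 before log2 was taken. Of 15611 probe sets 108 controls were left out and 15503 tested. By the array's annotation 9304 probe sets have 1 symbol (2 of them updated), 195 have more than 1 and 6112 have none. Limma 3.58.1 in R 4.3.3 was fitted to the 4 group means with the experiment as a block and a variance trend, with Benjamini-Hochberg adjustment at 0.05. A gene in a list was counted on its brightest probe set (mean log2 signal over 12 arrays). The block was used because the comparison pairs the arrays by experiment. Deviations from group means correlated at 0.152 to 0.269 in the 18 pairs of arrays of different groups and the same experiment. They correlated at -0.190 to -0.0037 in the 36 other pairs. Deviations cancel within a group, so the contrast of these 2 ranges is partly built in. The fit was tested on data simulated with normal errors of the fitted spread, which does not check signals near the floor of 1.

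The comparison and the 21 gene lists were chosen with earlier results of these data known. Genes named are lhx1, the 20 called with the largest change each way (on log2(signal + 64), in 1 direction in 3 of 3 experiments, signal at least 200 in the higher group), up to 6 called and 3 bright not called genes of each list, those that the paper treats as kidney or explant markers, and the 6 largest called differences of the responses each way. Of the 181 genes this rule gives, 133 have values here. Genes named only as members of a count (such as sox7, pim1 and bmp2) were chosen after their values were seen. Alternatives were no block, 16 or 64 added, quantile normalization, 1 median, no dim probe sets, no variance trend, the 6 arrays alone, the methods' t-test, any called probe set of a gene, and each array left out. No sequences are shown, since none of the tables used holds them.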

Additional observations from a re-analysis of the deposited data

Results flagged for a closer look

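For 38 of the 133 genes with values the test of the difference between the responses of injected and uninjected caps passed. It is given here as the log2 difference of the 2 responses with its adjusted p from limma. Over all probe sets the difference was called higher for 0.671% and lower for 0.871%. Genes were named partly for called differences and for large responses, which enter the difference, so the count of 38 is partly built in. An effect of injection and an effect of lhx1-AS cannot be told apart in these values, and the untreated level of each kind of caps enters them.

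The response was higher in injected caps for lefty (6.94, adjusted p = 0.00815), gsc (6.84, adjusted p = 0.0472), admp (4.93, adjusted p = 0.0322) and otx2 (3.98, adjusted p = 0.0203). It was higher for the endoderm genes darmin (4.43, adjusted p = 0.0356), gata4 (5.27, adjusted p = 0.0417) and gata6 (1.70, adjusted p = 0.0323), and for cebpa (4.63, adjusted p = 0.00582). Others on this side were fzd8 (5.83, adjusted p = 7.07e-05), fn1 (3.67, adjusted p = 7.07e-05), zic2 (3.76, adjusted p = 0.00741), gjb2 (3.21, adjusted p = 0.0065), atp1b1 (1.47, adjusted p = 0.0189) and fgfr2 (1.56, adjusted p = 0.0282).

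The response was lower in injected caps for the epidermal genes itln1 (-4.49, adjusted p = 0.00193), otogl2 (-5.48, adjusted p = 0.00815), krt70 (-4.93, adjusted p = 0.00732), krt12.4 (-4.33, adjusted p = 7.07e-05), fut6 (-4.40, adjusted p = 0.00719), mmp3 (-5.23, adjusted p = 0.0191) and atp6v1b1 (-5.35, adjusted p = 0.0472). The regulators on this side were dlx3 (-3.47, adjusted p = 0.00446), grhl1 (-3.22, adjusted p = 0.012), klf17 (-4.28, adjusted p = 0.00446), klf17.1 (-3.54, adjusted p = 0.0105), elf1 (-2.83, adjusted p = 0.00175), msx1 (-3.11, adjusted p = 0.00222) and hoxc6 (-4.54, adjusted p = 0.0119). The BMP target szl on 1 of its 2 probe sets (-3.52, adjusted p = 0.00446), the cadherin cdh1 (-1.49, adjusted p = 0.0477), the tektin tekt2 (-3.24, adjusted p = 0.031) and the retinoid isomerase rpe65 (-3.65, adjusted p = 0.000167) were also lower. So were vill (-4.92, adjusted p = 0.00115), ctbs (-2.51, adjusted p = 0.00896), tuba1cl.3 (-1.89, adjusted p = 0.0426), elovl7 (-3.74, adjusted p = 0.00591), anxa9 (-5.04, adjusted p = 0.0176) and LOC100158288 (-5.09, adjusted p = 0.00516).

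Of the 38 differences, 23 remained called without each of the 12 arrays in turn. The other 15, hoxc6, gsc, admp, otx2, darmin, gata4, gata6, atp1b1, fgfr2, cdh1, atp6v1b1, mmp3, tekt2, tuba1cl.3 and anxa9, were not called in 1 to 11 of the 12 cases, the most being 11 for cdh1 and 10 for gata6 and tuba1cl.3. A total of 17 were not called without the pairing by experiment, namely hoxc6, gsc, admp, darmin, gata4, gata6, atp1b1, cebpa, cdh1, atp6v1b1, mmp3, tekt2, tuba1cl.3, anxa9, fgfr2, klf17.1 and LOC100158288. With 64 added to each signal 5 were not called, szl, atp6v1b1, tekt2, tuba1cl.3 and anxa9, and the difference of tekt2 changed sign (0.20, adjusted p = 0.934). Of the 24 genes with more than 1 probe set, 6 had a called difference in the same direction on every one, and 4, otx2, gata6, szl and tekt2, had a probe set of opposite sign. The difference of the other szl probe set was 0.82 (adjusted p = 0.868).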

How the results depend on the processing

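With the pairing by experiment, 983 probe sets were higher and 1030 lower, and without the replicate block 620 and 634, all among them. The methods' t-test at an unadjusted p under 0.05 with a fold of at least 4 up or 2 down gave 507 and 764, and after Benjamini-Hochberg adjustment 31 and 15. Without 1 array the counts were 667 to 930 higher and 780 to 964 lower. These include new calls, and of the 983 and 1030 calls 645 to 791 and 738 to 857 were kept. Under the other alternatives (16 or 64 added to each signal, quantile normalization, 1 common median, no dim probe sets, no variance trend, 6 arrays only) they were within 1.5 times, at 716 to 1084 higher and 742 to 1086 lower, and no call turned without the block, with 64 added, with 1 median, with 6 arrays only or without 1 array. For the difference of the responses the counts were 104 higher and 135 lower, without the replicate block 26 and 42, and with 64 added 224 and 207. Without 1 array they were 52 to 109 and 72 to 215.

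Of the 110 named genes called, 102 remained called without each of the 6 arrays, 5 were lost without the replicate block, and in 61 the fold moved by over 1.5 times without 1 array. Many of the 110 were named for their large called changes, so they do not stand for all calls. Most of them were not called by the methods' t-test after Benjamini-Hochberg adjustment. The difference of tekt2 turned to 0.20 with 64 added. Of genes not called, 5 (otx2, sox11, sparc, fzd8 and fgfr2) were called under at least 1 alternative and 5 changed sign without 1 array: actb (-0.036 to 0.047), nrp1 (-0.50 to 0.065), rarg (-0.047 to 0.55), rdh10 (-0.20 to 0.13) and wt1 (-0.52 to 0.89). Fold changes of genes with 1 group near a signal of 1 depend on that signal, and 3 arrays a group limit the precision.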
